A study of Mus musculus with 6 samples.

Results

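The 42 genes described here code for the proteins that carry a signal from Toll-like receptors (TLRs) to the transcription factor NF-kB in mouse bone marrow-derived macrophages. They are the co-receptors and trafficking factor of the TLRs, the adaptors, the kinases and ubiquitin ligases below them, the NF-kB subunits, the inhibitors that feed back on the pathway, and the cytokine gene Tnf as an output. They were chosen by gene symbol from a deposited table of 16836 genes, which held all 42. RNA was sequenced from 3 libraries of UBE3A KO macrophages (KO) and 3 of wild-type littermates (WT). The protocol writes the genotype as Ube3a-/-, and the labels name no treatment, strain, age, sex or knockout allele. Whether the 3 libraries of a genotype stem from different animals is not in the labels, and p-values therefore reflect only the spread among these libraries, which may be technical in part. Replicate 2 of each genotype held 28 (KO) and 14 (WT) reads of Xist, the RNA of the inactive X chromosome in females, against 30161 to 42232 in the other 4 libraries. Replicate 2 thus did not come from the same animal as the other libraries of its genotype, and for the others the labels leave this unsaid. By Xist, replicate 2 of each genotype was male-like and the other 4 libraries female-like. The main fit had no term for sex, and the fit without replicate 2 of both genotypes held female-like libraries only.

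TLRs sit on the surface or in the endosomes of macrophages and bind microbial products. Ligand binding recruits TIR-domain adaptors, which pass the signal through IRAK kinases and TRAF ubiquitin ligases to the TAK1 and IKK kinase complexes, and IKK marks the inhibitory IkB proteins for destruction so that NF-kB dimers can enter the nucleus. NF-kB then drives cytokines such as Tnf and, in a negative feedback loop, several of its own inhibitors. Ube3a encodes a HECT-type ubiquitin ligase. The comparison asks how its loss alters the macrophage transcriptome, here for genes of a pathway that itself works through ubiquitin.

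Letters of the NF-kB consensus were found near the start sites of some members. The 10-base NF-kB consensus site was searched on both strands of the 250 bases upstream of each RefSeq start site (GRCm38.p6). A gene with several start sites counted as matched if any of their windows matched. Of the 31 members with an entry, 11 held at least 1 match, or 35.5%, against 8.23% of the 27025 genes in the promoter table. A match describes letters and is not a measured binding site. Matches stood in the windows of subunit genes (Rel and Nfkb2) and of inhibitor genes (Nfkbia, Nfkbie, Nfkbid, Tnip1, Tnfaip3 and Cyld), and also of Traf3, Map3k7 and Irak1. The windows of Nfkbia and Tnf are shown whole because transcripts of these members varied together across the libraries, as described further on. The first is chr12:55492648-55492897 and the second chr17:35202008-35202257, both on the minus strand and read 5′ to 3′ up to the base before the start site. Capitals mark the consensus match in Nfkbia, which begins 29 bases upstream of the start, and the Tnf window held none. Bases further upstream of Tnf were not searched.
Nfkbia: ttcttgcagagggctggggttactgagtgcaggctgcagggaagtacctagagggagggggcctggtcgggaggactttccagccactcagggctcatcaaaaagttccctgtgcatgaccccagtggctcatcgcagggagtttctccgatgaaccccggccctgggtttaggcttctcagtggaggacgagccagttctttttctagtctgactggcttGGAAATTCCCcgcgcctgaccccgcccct
Tnf: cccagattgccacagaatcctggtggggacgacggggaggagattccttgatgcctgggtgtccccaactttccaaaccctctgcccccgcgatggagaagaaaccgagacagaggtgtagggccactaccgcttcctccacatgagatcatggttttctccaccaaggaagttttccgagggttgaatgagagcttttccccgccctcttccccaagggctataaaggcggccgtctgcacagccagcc
For subunit and inhibitor genes 1 match per gene is shown alone, to let the letters be compared with those of Nfkbia. These fit the consensus as printed, whereas the match of Nfkbia fits it when read on the opposite strand. Matches that overlap by all but a base or so were counted as separate windows in Rel, Nfkb2 and Tnip1. Nfkbid and Tnfaip3 also had start sites whose windows held no match.
Rel: GGGAAATCCC
Nfkb2: GGGAATTCCC
Nfkbie: GGGGGATTCC
Nfkbid: GGGACTTCCC
Tnip1: GGGGAATTCC
Tnfaip3: GGGACACCCC

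The targeted gene was lower in every KO library. Ube3a stood at 69.7, 61.2 and 77.0 CPM (reads scaled to a common library size, using the authors' scaled totals) in the KO libraries, given here and throughout in the order of replicates 1 to 3, and at 207.1, 193.7 and 177.6 CPM in the WT libraries. Markers of macrophages, among them Csf1r, Cd68, Adgre1 and Lyz2, were abundant in every library, with 8 of 8 listed markers tested. Their summed level was 12757 to 15344 CPM, most of it Lyz2 at 8859 to 11216 CPM, and the lowest marker, Mertk, stood at 40.1 to 63.1 CPM. The 8 neutrophil markers in the table summed to 2.72 to 13.3 CPM and the 3 dendritic cell markers to at most 0.578 CPM. No T cell or mast cell marker on the lists was in the table, and these are not analysed here. Among the gene lists examined, 21 interferon-stimulated genes had the widest spread between libraries of 1 genotype, with a median SD of 0.802 on the log2 scale in KO and 0.782 in WT. As a log2 deviation from the mean of the 6 libraries, their mean level was 0.95, −0.78 and 0.16 in the KO libraries and −0.73, 0.80 and −0.41 in the WT libraries. Reads per library numbered 25454862 to 35517269.

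None of the 42 members passed the test for a difference between KO and WT. All passed the filter of 1 CPM in at least 3 libraries, with 206 to 34958 reads per member and library, and the limma fit on log2(CPM + 1) took in 12118 genes. At a Benjamini-Hochberg adjusted p under 0.05, 0 of 42 members were called by limma, and also 0 by limma-voom, against 0.0165% of all genes tested by limma. The smallest limma adjusted p among the members was 0.866 and the largest 0.986. At an unadjusted p under 0.05 the count was 0 of 42, against 4.13% of all genes, of which 1.68% had KO higher and 2.44% had KO lower. In the authors' deposited table the smallest unadjusted p of a member was 0.0823.

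The fitted intervals of most members were narrow. They reflect only the spread among these libraries, in a fit with no term for sex. For 41 of 42 members, or 97.6%, the whole 95% interval of the difference was smaller than 1.5-fold in either direction, against 90.4% of all genes tested. The exception was Unc93b1, whose interval reached 1.59 times the WT level. In the alternative fits the count was 39 to 41, and the only members outside in any of them were Unc93b1, Nfkbiz and Traf1. Fitted differences ran from −0.17 (Nfkbid) to 0.23 (Unc93b1) on the log2(CPM + 1) scale, with 23 members above 0 and 19 below, beside 49.6% of all genes below 0. Their median was 0.012, beside 0.0015 over all genes. In 7 of 42 members, or 16.7%, the KO and WT libraries did not overlap, against 9.95% of all genes, which is a description of these libraries with no test. In 4 of them (Irak3, Tab2, Ikbkb and Tollip) the KO libraries were the higher ones, and in 3 (Ripk2, Tbk1 and Nfkbid) the lower ones, against 4.41% and 5.55% of all genes.

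**Figure D1:**
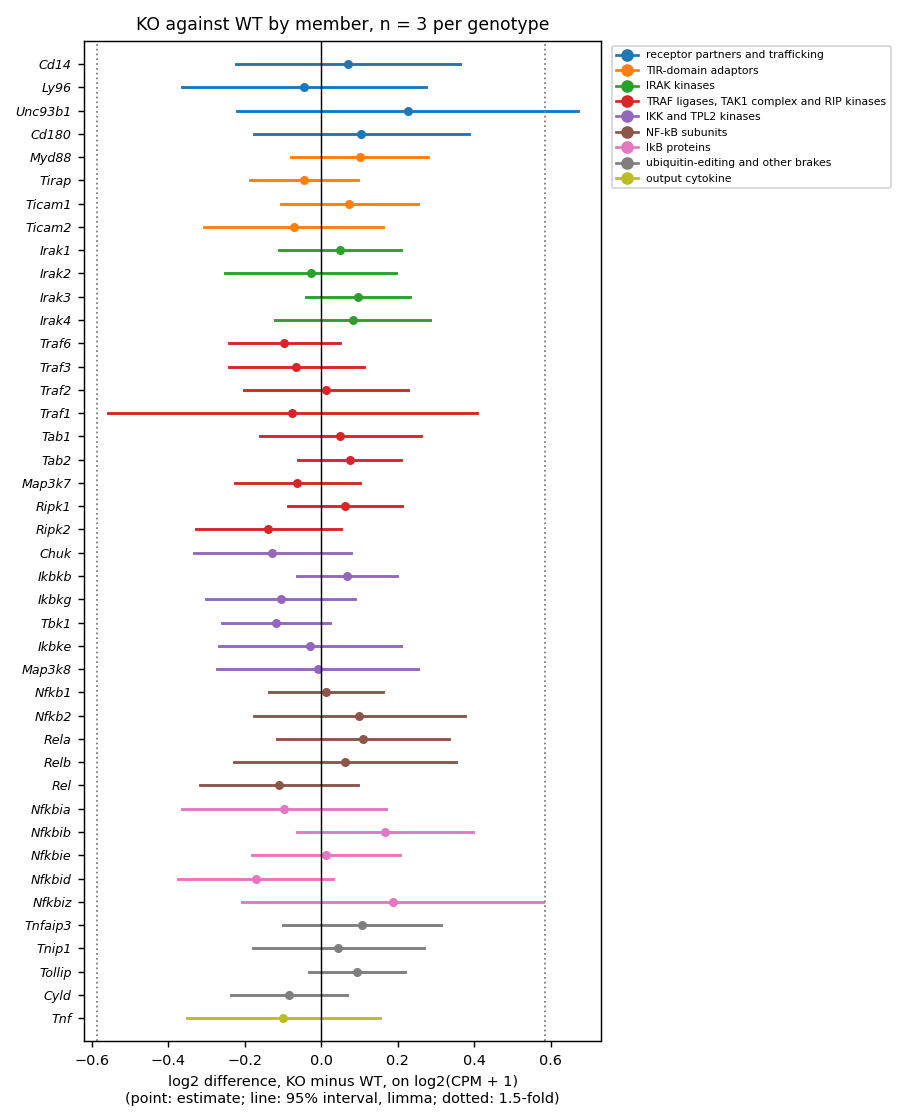
Fitted difference between KO and WT for each of the 42 members on the log2(CPM + 1) scale (horizontal axis), with points for estimates, lines for 95% limma intervals (n = 3 libraries per genotype), colours for roles and dotted lines at 1.5-fold. All intervals include 0, and only that of Unc93b1 passes a dotted line.

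Per kb of exon, the levels of the members spanned a wide range, and most of it lay at the receptor end. Averaged over the 6 libraries, CPM per kb ran from 2.87 for Ticam2 to 607 for Cd14. Cd14, Cd180 and Unc93b1, at 607, 104 and 98.2 CPM per kb, were the highest members. Below the receptors every member lay between 2.87 and 46.8 CPM per kb. Within the classes the highest were Myd88 among adaptors (31.5), Irak1 among IRAK kinases (22.1), Tab2 among the TRAF and TAK1 genes (39.2), Tbk1 among the IKK and TPL2 kinases (35.7), Rela among the subunits (32.95), Nfkbia among the IkB genes (46.8) and Tollip among the other brakes (29.5), all in CPM per kb. Exon lengths are those of GENCODE M21 on GRCm38, which may not be the annotation the authors counted on. In bulk RNA, fewer cells of a type and less RNA per cell cannot be told apart.

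**Figure D2:**
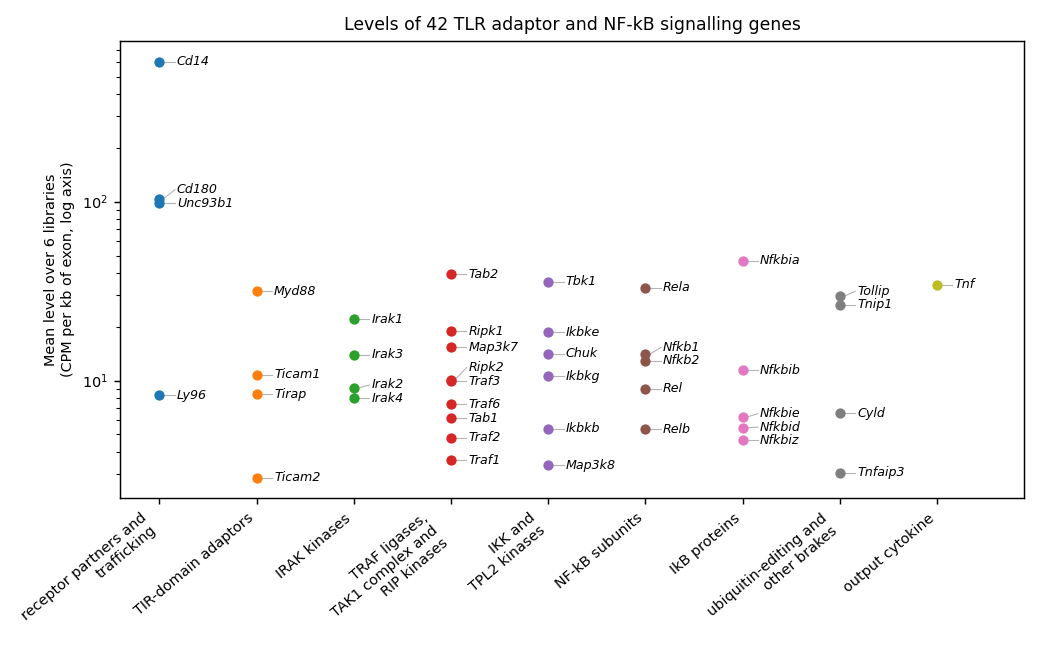
Mean level of each member over the 6 libraries in CPM per kb of exon (vertical log axis), in columns by role. Cd14 stands at 607 CPM per kb, and all members outside the receptor class lie at or below 46.8.

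The co-receptors and the trafficking factor varied more between libraries than between genotypes. Cd14, which hands lipopolysaccharide to the TLR4 complex, stood at 1236.5, 984 and 1010.1 CPM in KO and at 923, 1187 and 969 CPM in WT. The genotypes overlapped, with KO replicate 1 and WT replicate 2 highest (log2 difference 0.07, 95% interval −0.22 to 0.36). Unc93b1, the chaperone that brings TLR3, TLR7 and TLR9 to endosomes (chromosome 19: 3935186 to 3949340, plus strand, GRCm38), stood at 362, 321 and 272 CPM in KO and at 211, 366 and 254 CPM in WT. WT replicate 2 was its highest library and WT replicate 1 its lowest, a 1.73-fold gap that was the widest of any member. Its log2 difference was 0.23 (−0.22 to 0.67; limma adjusted p = 0.868). Ly96, also called MD-2, the lipid-binding partner of TLR4, had the fewest reads of any member, at 8.80, 7.39 and 8.57 CPM in KO and 10.5, 7.29 and 8.07 CPM in WT. Its highest library, WT replicate 1, was the lowest for Unc93b1 and Cd14, and its log2 difference was −0.05 (−0.36 to 0.27). Cd180, a TLR4-like surface receptor, averaged 484 ± 56.7 CPM in KO against 451 ± 64.9 in WT (SD, n = 3), again with KO replicate 1 and WT replicate 2 highest.

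The 4 TIR-domain adaptors lay close to their WT levels. Myd88, the adaptor of nearly all TLRs and of the IL-1 receptor, stood at 77.1, 87.0 and 88.1 CPM in KO and at 75.0, 75.7 and 84.2 CPM in WT. Only KO replicate 1 lay among the WT values, and the log2 difference was 0.10 (−0.08 to 0.28; limma adjusted p = 0.866). Tirap, which brings Myd88 to the plasma membrane, averaged 40.7 ± 0.319 CPM in KO against 42.03 ± 1.40 in WT (SD, n = 3). Ticam1, or TRIF, the adaptor of TLR3 and of endosomal TLR4, stood at 33.0 ± 1.49 and 31.3 ± 2.28 CPM. Its bridging partner Ticam2, or TRAM, stood at 16.2 ± 1.63 and 17.1 ± 1.35 CPM. The MyD88 and TRIF branches thus showed fitted differences of 0.10 and 0.07 for their main adaptors and −0.04 and −0.07 for the bridging ones, all with intervals that include 0. Ticam2 shares 838 bp of exon with Tmed7 on the same strand, a gene at a mean of 211 CPM, so the assignment of its reads is uncertain.

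Among the 4 IRAK kinases the KO and WT libraries did not overlap in 1, beside 9.95% of all genes tested. This was Irak3 (IRAK-M), which restrains signalling in macrophages. It stood at 51.3, 54.4 and 53.2 CPM in KO and at 49.0, 49.1 and 50.3 CPM in WT, so that all KO libraries were above all WT libraries. The gap was small, at 1.07 times the WT mean, with a log2 difference of 0.10 (−0.04 to 0.23; limma adjusted p = 0.866). Irak1, the most abundant IRAK per kb, stood at 110.3, 103.6 and 103.8 CPM in KO and at 100.3, 110.3 and 96.6 CPM in WT, an overlap with KO replicate 1 and WT replicate 2 level at the top. Irak4, the first kinase of the Myddosome, stood at 41.1 ± 3.99 and 38.7 ± 2.43 CPM, and Irak2, which sustains later signalling, at 39.7 ± 4.23 and 40.4 ± 3.27 CPM in KO and WT (SD, n = 3).

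Of the TRAF ligases, the TAK1 complex and the RIP kinases, Tab2 and Ripk2 did not overlap between genotypes, in opposite directions. Over all genes tested, 9.95% did not overlap. Tab2, the ubiquitin-binding subunit that couples TRAF6 chains to TAK1, stood at 239.7, 242 and 259 CPM in KO and at 234, 237 and 231 CPM in WT. Every KO library was above every WT library, by 1.05 times in the mean (log2 difference 0.07, −0.06 to 0.21). Ripk2, the kinase of NOD1 and NOD2 signalling, stood at 28.7, 24.4 and 28.1 CPM in KO and at 30.9, 29.6 and 28.95 CPM in WT. All KO values were below all WT values, although KO replicate 1 and WT replicate 3 nearly touched (log2 difference −0.14, −0.33 to 0.05; limma adjusted p = 0.866). Traf1, which is itself an NF-kB target and modifies TNF receptor signalling, had the second widest range among members, at 41.0, 24.6 and 27.4 CPM in KO and 27.1, 40.9 and 29.2 CPM in WT. KO replicate 1 and WT replicate 2 stood apart from the other 4 libraries, and these are the libraries with the highest interferon-stimulated genes. The part of that difference between libraries in the Traf1 level was not tested.

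The other members of this class differed little by genotype. Traf6, the ligase that builds the ubiquitin chains read by TAB2, had a log2 difference of −0.10 (−0.24 to 0.05), with means of 56.1 ± 2.20 CPM in KO and 60.0 ± 2.14 in WT (SD, n = 3). Traf3, which steers TRIF signals to TBK1, had −0.06, Traf2, of TNF receptor signalling, 0.01, and Map3k7, which encodes TAK1 itself, −0.06. Tab1, the activating subunit of TAK1, had 0.05 and Ripk1, the kinase scaffold of TNF signalling, 0.06 on the same log2(CPM + 1) scale.

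Among the kinases that phosphorylate IkB proteins and IRF3, Tbk1 and Ikbkb did not overlap between genotypes, beside 9.95% of all genes tested. Tbk1, the kinase that activates IRF3 below TRIF (chromosome 10: 121546455 to 121586787, minus strand, GRCm38), stood at 135, 127 and 139.8 CPM in KO and at 150.5, 142 and 144 CPM in WT. All KO libraries were lower, at 0.921 times the WT mean, with a log2 difference of −0.12 (−0.26 to 0.02; limma adjusted p = 0.866). Ikbkb, which encodes the catalytic IKK-beta, stood at 105.3, 105.7 and 104.9 CPM in KO and at 102.6, 102.8 and 96.0 CPM in WT. Its KO libraries were all higher, with WT replicate 3 the furthest below (log2 difference 0.07, −0.06 to 0.20). The partner kinase Chuk, or IKK-alpha, had a log2 difference of −0.13 (−0.33 to 0.08) and the scaffold Ikbkg, or NEMO, one of −0.10 (−0.30 to 0.09), so that the 3 subunits of the complex did not share a sign. The first was −0.03 without KO replicate 2 and the second −0.02 without WT replicate 1. Ikbkg shares 418 bp of exon with G6pdx on the opposite strand, and how counting treated strand is not stated in the sources used. Such sharing with another gene was found in 9 of the 42 members, on the opposite strand for all but Ticam2. Among them is Irak3, which shares 192 bp with Tmbim4. Ikbke, a relative of Tbk1, had −0.03, and Map3k8 (TPL2), which links IKK to the ERK kinases, −0.01.

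The 5 NF-kB subunits overlapped between genotypes. Rela, or p65, the main activating subunit, stood at 111, 110.7 and 93.3 CPM in KO and at 87.5, 106 and 98.2 CPM in WT. KO replicate 3 lay within the WT range, and the log2 difference was 0.11 (−0.12 to 0.33; limma adjusted p = 0.877), or 0.03 without WT replicate 1 and 0.19 without KO replicate 3. Rel, or c-Rel, stood at 66.5, 57.6 and 70.1 CPM in KO and 75.5, 67.4 and 66.6 CPM in WT, a difference of −0.11 (−0.32 to 0.10) with KO replicate 2 lowest, and of −0.03 without that library. Relb, the subunit of the alternative pathway, stood at 21.5, 24.4 and 17.9 CPM in KO and 18.8, 22.9 and 19.1 CPM in WT, with replicate 2 highest in both genotypes. Nfkb1, the precursor of p50, was among the steadiest, at 169.5 ± 3.56 CPM in KO against 168 ± 10.5 in WT (SD, n = 3), and Nfkb2, the precursor of p52, stood at 61.1 ± 7.11 and 57.0 ± 8.03 CPM.

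The IkB genes went both ways. Nfkbid, a nuclear IkB protein that needs NF-kB for its expression (chromosome 7: 30421732 to 30428746, plus strand, GRCm38), had the smallest unadjusted p of all members. It stood at 12.9, 10.96 and 12.1 CPM in KO and at 13.2, 13.8 and 13.8 CPM in WT, so that all KO libraries were below all WT libraries. KO was at 0.882 times the WT mean (log2 difference −0.17, −0.37 to 0.03; limma adjusted p = 0.866). Nfkbiz, the nuclear IkB-zeta that helps induce secondary response genes, stood at 28.2, 21.2 and 24.5 CPM in KO and at 17.96, 28.1 and 19.4 CPM in WT. WT replicate 2 reached the level of the highest KO library while the other WT libraries lay below all KO libraries (log2 difference 0.19, −0.21 to 0.58). Nfkbib, or IkB-beta, had a log2 difference of 0.17 (−0.06 to 0.40; limma adjusted p = 0.866), and Nfkbie, or IkB-epsilon, one of 0.01 (−0.18 to 0.21).

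Nfkbia and Tnf, the classical inhibitor and cytokine targets of NF-kB, ranked the 6 libraries in the same order. Nfkbia, which encodes IkB-alpha (chromosome 12: 55489410 to 55492647, minus strand, GRCm38), stood at 69.99, 77.7 and 69.9 CPM in KO and at 86.8, 64.1 and 83.9 CPM in WT. Tnf stood at 55.6, 56.5 and 49.97 CPM in KO and at 64.8, 48.9 and 61.0 CPM in WT. For both, WT replicates 1 and 3 were highest and WT replicate 2 lowest, with the KO libraries between. This exact order of libraries was found in 37 of 12118 genes tested, and these were the only members with it. The observation was made after their values were seen. The sums of the progenitor and neutrophil markers were also highest in WT replicates 1 and 3. Those of the other lists were not, with B cell markers highest in KO replicate 3 (4.38 CPM), fibroblast markers in WT replicate 2 (1.17) and dendritic cell markers in KO replicate 2 (0.578). The progenitor marker Cd34 stood at 25.8, 24.5 and 34.0 CPM in KO and at 77.3, 28.9 and 74.1 CPM in WT. The 4 progenitor markers summed to 31.1, 30.2 and 40.8 CPM in KO and to 83.8, 34.1 and 80.9 CPM in WT, and most of each sum was Cd34. Meis1 differed little, at 5.04, 5.46 and 6.41 CPM in KO and 6.24, 4.88 and 6.57 CPM in WT. Kit and Gata2 reached at most 0.37 CPM in any library. The 8 neutrophil markers summed to 2.72, 7.29 and 8.97 CPM in KO and to 12.65, 4.56 and 13.3 CPM in WT. Their part in the levels of Nfkbia and Tnf was not tested. Log2 differences were −0.10 (−0.36 to 0.17) for Nfkbia and −0.10 (−0.35 to 0.15) for Tnf.

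Among the remaining brakes of the pathway, Tollip did not overlap between genotypes, and Tnip1 varied the most between libraries. Over all genes tested, 9.95% did not overlap. Tollip, which binds IRAK1 and TLR complexes, stood at 151, 159 and 153 CPM in KO and at 144, 146 and 144 CPM in WT. The KO libraries were all higher, by 1.07 times in the mean (log2 difference 0.09, −0.03 to 0.22; limma adjusted p = 0.866). Tnfaip3, or A20, the ubiquitin-editing enzyme that shuts off TRAF6 and RIPK1 signals, had a log2 difference of 0.11 (−0.10 to 0.31), with 22.9 ± 2.04 CPM in KO and 21.2 ± 1.25 in WT (SD, n = 3). Its binding partner Tnip1, with a 1.31-fold gap between its highest and lowest library, had 0.05 (−0.18 to 0.27), and the deubiquitinase Cyld −0.08 (−0.23 to 0.07).

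**Figure D3:**
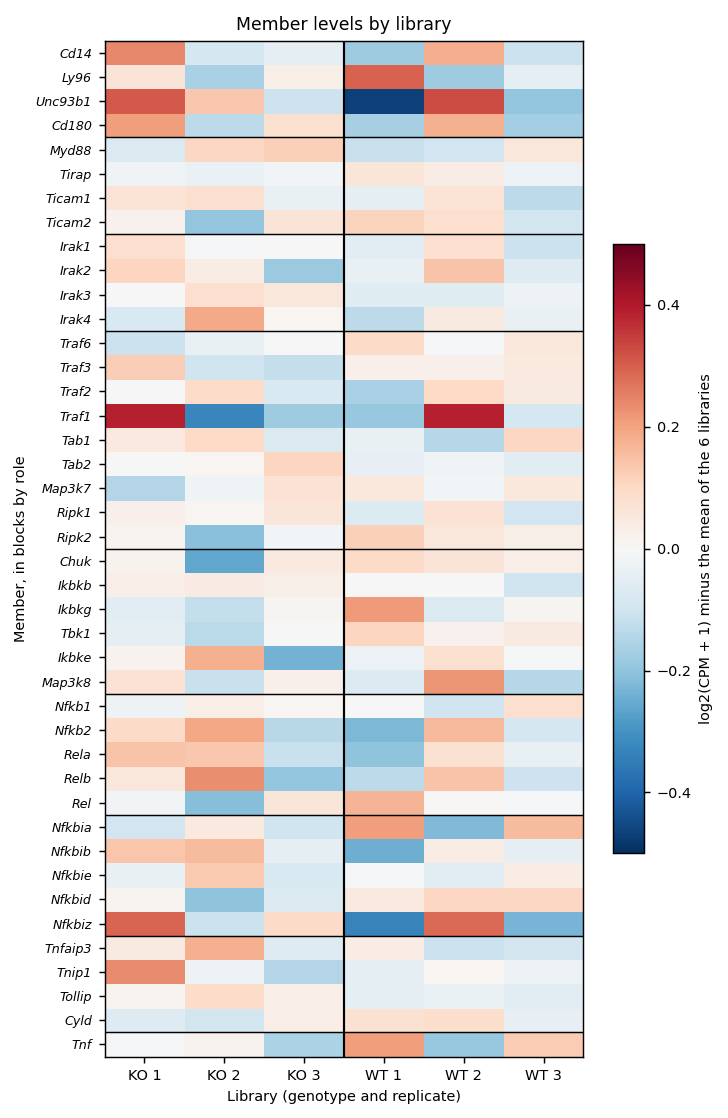
Level of each member in each library as log2(CPM + 1) minus its mean over the 6 libraries (colour), with members in blocks by role and a line between KO and WT libraries. Unc93b1, Traf1 and Nfkbiz have the widest range of colours. In 7 of the 42 rows (16.7%) KO and WT libraries do not overlap, against 9.95% of all genes tested.

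Across the members, libraries of 1 genotype differed about as much as they did for other genes. The median SD on the log2(CPM + 1) scale was 0.1096 in KO and 0.0951 in WT, beside 0.111 and 0.103 over all genes tested. The gap between the highest and the lowest library passed 1.5-fold in 3 members, Unc93b1, Traf1 and Nfkbiz. KO replicate 1 and WT replicate 2 were the top pair of libraries for 9 of 42 members, or 21.4%, against 12.8% of all genes tested. These were Cd14, Unc93b1, Cd180, Irak1, Irak2, Traf1, Map3k8, Nfkbiz and Tnip1. The same libraries had the highest levels of interferon-stimulated genes, at 2398 and 2066 summed CPM against 736 to 1338 in the other 4. Replicate 2 of both genotypes, the male-like libraries, formed the top pair for 6 members, or 14.3%, against 7.99% of all genes tested. These 6 were Ticam1, Irak4, Traf2, Ikbke, Nfkb2 and Relb. The part of either library difference in the members' levels was not tested.

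**Figure D4:**
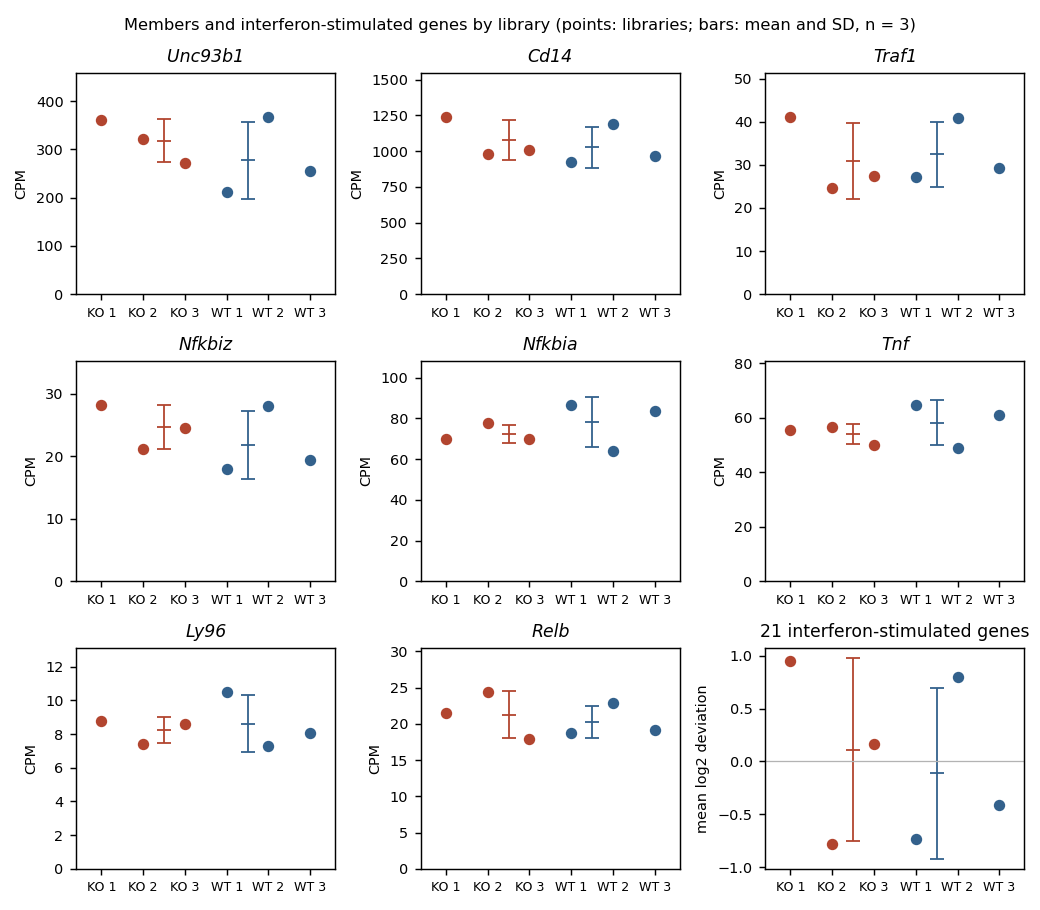
CPM of 8 members in each library and, in the last panel, the mean log2 deviation of 21 interferon-stimulated genes (points: libraries, red KO and blue WT; bars: mean and SD, n = 3). KO replicate 1 and WT replicate 2 are highest for Unc93b1, Cd14, Traf1, Nfkbiz and the interferon list, while WT replicate 2 is lowest for Nfkbia and Tnf.

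Several of these values depended on single WT libraries, in opposite directions. Without WT replicate 1 the log2 differences of Unc93b1 and Nfkbiz were 0.05 and 0.07, and those of Nfkbia and Tnf were both −0.02. Without WT replicate 2, 4 members had an unadjusted limma p under 0.05, and none had an adjusted p under 0.05. Unc93b1 then had a log2 difference of 0.45 (limma adjusted p = 0.312) and Nfkbiz one of 0.38 (0.388), while Nfkbia had −0.23 (limma adjusted p = 0.384) and Tnf −0.22 (0.428). The 4 members are 9.52% of the list, and 10.6% of all genes passed the same mark in that fit. Without replicate 2 of both genotypes, 5 members passed it, or 11.9%, against 11.3% of all genes, with Cd180 as the added one at 0.31 (limma adjusted p = 0.143). The smallest adjusted p of a member in that fit was 0.0989, for Nfkbiz at a log2 difference of 0.48.

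On the chromosome of Ube3a lay 4 of the 42 members. Nfkbid, Nfkbib, Relb and Tollip are 28.8, 30.5, 39.6 and 82.6 Mb from it on chromosome 7. In Nfkbid and Tollip the genotypes did not overlap, with KO lower for the first and higher for the second. Of the 925 genes tested on that chromosome, 11.2% did not overlap.

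Other genes of the pathway, from lists drawn up by role, held no gene past the test. Of 10 tested Toll-like receptors 0 changed in either direction by limma, and 0 had an unadjusted p under 0.05 (all genes: 4.13%). The smallest p were those of Tlr6, a partner of TLR2, with a log2 difference of 0.13 (−0.05 to 0.31), and its close relative Tlr1, with 0.15 (−0.10 to 0.40). Of 33 further pathway genes 0 changed, and 1 had an unadjusted p under 0.05, beside 4.13% of all genes. That was Map3k14, the NIK kinase of the alternative pathway, at 22.9, 21.8 and 23.6 CPM in KO and 24.3, 29.1 and 27.8 CPM in WT. Its KO libraries were all lower (log2 difference −0.24, −0.44 to −0.04; limma adjusted p = 0.866). Next came Ube2n, the UBC13 enzyme that builds chains with TRAF6, at a log2 difference of −0.16 (−0.34 to 0.01). Its KO libraries were also all lower, as held for 2 of these 33 genes and for 5.55% of all genes.

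The arms beside and below NF-kB were not called either. Of 15 genes of the MAP kinase arm 0 changed and 0 had an unadjusted p under 0.05, beside 4.13% of all genes. The AP-1 subunit Jun had 0.16 (−0.02 to 0.34) and the kinase Mapk8, or JNK1, −0.19 (−0.40 to 0.02). Of 9 genes of the TNF receptor arm 0 changed and 0 had an unadjusted p under 0.05, beside 4.13% of all genes. Birc2, the ligase cIAP1, had −0.16 (−0.35 to 0.04) and Adam17, the sheddase that frees TNF, −0.13 (−0.30 to 0.04).

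Of 18 tested target genes of NF-kB 0 changed by limma. An unadjusted p under 0.05 was found for 3 of them (1 with KO higher and 2 with KO lower), beside 4.13% of all genes. The 95% interval lay within 1.5-fold for 11 of the 18, or 61.1%, against 90.4% of all genes. The chemokine gene Cxcl10 stood at 4.84, 4.59 and 6.38 CPM in KO and 7.68, 6.40 and 6.93 CPM in WT (log2 difference −0.36, −0.67 to −0.05; limma adjusted p = 0.866). The neutrophil attractant Cxcl2 stood at 16.04, 15.3 and 14.6 CPM in KO and 24.3, 16.2 and 19.4 CPM in WT (−0.34, −0.66 to −0.03; limma adjusted p = 0.866). For both chemokines all KO libraries were below all WT libraries, as also for the target Sod2 (−0.15, −0.31 to 0.02). In this list of 18 genes that held for 3, and 1 had all KO libraries higher, against 5.55% and 4.41% of all genes. Il10, the anti-inflammatory cytokine, was near the filter at 1.72, 2.06 and 2.04 CPM in KO and 1.31, 1.63 and 1.22 CPM in WT, with all KO libraries higher (0.30, 0.01 to 0.59; limma adjusted p = 0.866). Sod2 and Il10 were picked after their values were seen. Of 21 interferon-stimulated genes 0 changed and 0 had an unadjusted p under 0.05. Their median log2 difference was 0.25, and no interval lay within 1.5-fold, since their libraries differed so widely within each genotype. The smallest p in that list were those of the immunity-related GTPase Ifi47, with 0.29 (−0.23 to 0.82), and of Stat2, with 0.25 (−0.38 to 0.88).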

How the data were processed

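The authors deposited 1 table with 6 columns headed CPM, a fold change and a p-value per gene. From their range the columns hold log2 CPM, and the decimal mark of values of size 1 or more was lost on saving. Each value with more than 1 reading was settled by requiring a whole number of reads above a shared offset. This returned whole reads, within 1e-06, for 100% of values, and 100% of simulated reads were recovered. Per the submitters' processing notes, the tools were HISAT2 2.1.0, Trimmomatic 0.36, FastQC 0.11.15, HTSeq 0.11.0 and Cufflinks. What each did, the build, the annotation and the strand setting are not stated in the sources used. The authors' deposited p-values are unadjusted, 6 of them unreadable, and limma-voom on the recovered reads of all genes gave the others within a relative gap of 4.07e-13.

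CPM were the recovered reads over the authors' scaled totals, and 1 read was worth 0.0277 to 0.0400 CPM. Genes with at least 1 CPM in 3 libraries were fitted with limma 3.58.1 (R 4.3.3, intensity trend, genotype as the only term) on log2(CPM + 1), which understates changes of low genes. Intervals are at the 95% level. On simulated reads of the 12118 genes, with many changed genes planted, 88% of 2-fold and 64% of 1.5-fold higher genes were called. Each gene was drawn independently, without the differences between libraries that many genes share. In the data only 2 genes were called, which makes the adjusted p threshold stricter there. The simulated shares therefore do not apply to the data, where fewer true changes would be found. Exact permutation of 3 against 3 values cannot go under 0.1, the value reached by the members whose genotypes did not overlap. Libraries of 1 genotype differed beyond sampling noise (chi-square per degree of freedom 12.4 to 49.9).

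The members, lists and tests were chosen with earlier results of these data known. Values per library are given for members that have the smallest p or the highest level per kb in their class, the 6 with the widest range, those without overlap between genotypes, and Tnf and Ube3a. From each pathway list the 2 genes with the smallest p are named. Marker lists covered macrophages, neutrophils, dendritic cells, progenitors, T cells, B cells, mast cells and fibroblasts. The 4 progenitor markers summed to 30.2 to 83.8 CPM, the 2 B cell markers in the table to 2.08 to 4.38, and the 3 fibroblast markers to 0.166 to 1.17. Alternatives changed the pseudocount, the filter, the library sizes, the test, a replicate block and the libraries included.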

Additional observations from a re-analysis of the deposited data

How the results depend on the processing

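No member had an adjusted p under 0.05 in any of 13 alternative fits, and 29 of 42 members kept the sign of their difference in all of them. No member changed sign with a pseudocount of 0.25, without the filter, with plain read totals, with median-of-ratios size factors, with limma-voom or with the replicate block. Over all genes, 2 were called, against 1 with no filter on low values, 1 with limma-voom, 23 without replicate 2 of both genotypes and 1 to 8 with 1 library left out, the 8 being without WT replicate 2. Members with an unadjusted p under 0.05 numbered 0, against 5 without replicate 2 of both genotypes and 0 to 4 with 1 library left out, the 4 being without WT replicate 2. The median of the members was 0.00458 to 0.063 with 1 library left out. Log2 differences that changed sign with 1 library left out ran from −0.0335 to 0.179 for Cd14, −0.146 to 0.0907 for Ly96, −0.134 to 0.00901 for Ticam2, −0.0883 to 0.059 for Irak2, −0.066 to 0.0645 for Traf2, −0.289 to 0.0999 for Traf1, −0.00842 to 0.115 for Tab1, −0.125 to 0.0832 for Ikbke, −0.0813 to 0.1 for Map3k8, −0.034 to 0.0555 for Nfkb1, −0.0363 to 0.175 for Relb, −0.0504 to 0.0524 for Nfkbie and −0.0625 to 0.13 for Tnip1. Without replicate 2 of both genotypes the sign changed for Ticam2 (0.0333), Irak2 (0.0111), Traf1 (0.244), Tab1 (−0.0457), Map3k8 (0.154), Nfkb1 (−0.0477) and Nfkbie (−0.0737). With 1 library left out, the differences of 37 of 42 members moved by over 1.5 times or changed sign, in at least 1 fit. The 5 that did not were Cyld, Irak3, Tbk1, Tollip and Traf6. Intervals within 1.5-fold numbered 41, against 40 with limma-voom or a pseudocount of 0.25 (Nfkbiz added outside), 39 with the replicate block or without replicate 2 of both genotypes (Nfkbiz and Traf1 added) and 39 to 41 with 1 library left out. The cause was not tested.

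With the replicate number as a block, 2 genes and 0 members were called, and the smallest adjusted p of a member was 0.927. Deviations from the genotype means correlated across genes at −0.216, −0.134 and 0.14 for same-numbered libraries, and KO replicate 1 correlated best with WT replicate 2 (0.398), so the numbers were not taken as pairs. A planned fit with edgeR was not run. Members had at least 206 reads in every library. Counting noise and the spread between libraries were not separated.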
